A study of Mus musculus with 12 samples.

Results

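In macrophages of a mouse glioma, 7917 regions of open chromatin carried an accessibility call in microglia and in monocyte-derived macrophages without lipid load, and a call in neither lipid-laden counterpart. They were chosen by the names that the authors' merged calls left in the region identifiers, and they make up 6.72% of the 117835 regions counted and 15.4% of the 51250 regions called in both groups without lipid load. The regions were narrow and of low level. Their median width was 165 bp, and their median level over the 6 libraries without lipid load was 3.46 CPM (counts scaled to a common library total, explained with the processing), against a median width of 387 bp and a median level of 14.6 CPM for the 32545 regions called in all 4 groups. The absence of a lipid-laden call was not an absence of counts. In every lipid-laden library the 7917 regions held between 2.51% and 2.94% of all counts, against 2.98% to 4.54% in the libraries without lipid load.

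Lipid-laden microglia (LL-MG), lipid-laden monocyte-derived macrophages (LL-MDM), microglia without lipid load (MG) and monocyte-derived macrophages without lipid load (MDM) had 3 ATAC-seq libraries each. The cells came by flow sorting from brain tumours of the genotype Ink4a/ArfKO, PDGFB, which all 4 groups share. In the model the growth factor is expressed in Nestin-positive progenitor cells of animals that lack Ink4a/Arf. No untreated or tumour-free brain is among the groups, the sources used here give neither the animals' age nor the sorting markers, and the titles carry 3 mouse numbers. Titles and descriptions name the same group for 4 libraries and differ for 8. The groups here follow the descriptions, since the count table names its columns by them, and the result of grouping by title stands beside each comparison. By the descriptions, the title groups MG and MDM both hold only MDM and LL-MDM libraries. The title groups LL-MG and LL-MDM both hold only MG and LL-MG libraries. If the descriptions hold, a comparison by title thus sets other libraries against each other and cannot test the comparison made here. Nothing states that the libraries of a group came from separate animals, so p-values describe library-to-library spread only, which may be technical.

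ATAC-seq uses the Tn5 transposase to place adapters into DNA that nucleosomes leave open, so that counts pile up at active promoters and enhancers. Promoters of broadly used genes are open in most cell types, whereas enhancers away from gene starts differ more between cell types and states, and many macrophage enhancers are opened by PU.1 together with lineage factors. Microglia settle in the brain before birth, whereas monocyte-derived macrophages enter a tumour from the blood. Macrophages that take up myelin or cell debris store cholesterol esters and other lipids in droplets, which is what "lipid-laden" describes. A peak call compares the counts in a window with a background, so a call depends on depth as well as on openness.

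At gene starts, 449 RefSeq promoter windows (250 bases before to 50 bases after the start, build GRCm38.p6) overlapped a member region. Their median G+C content was 61.0% and their median number of CpG pairs was 16, against 62.0% and 22 in the 10849 windows overlapped by regions called in all 4 groups, and 52.7% and 7 in all 32851 windows. The GC box GGGCGG, a site of the SP and KLF factors, was present on either strand in 57.2% of the members' windows, in 67.9% of the windows of regions called in all 4 groups and in 35.7% of all windows. The windows of 4 genes are shown here, as RefSeq sequence read 5′ to 3′ on the gene's strand with GC boxes on either strand in capitals. Fosl2 (an AP-1 subunit, chr5:32136222-32136521, plus strand) and Map3k1 (a kinase of the JNK cascade, chr13:111808944-111809243, minus strand) lie under the members at a gene start with the highest levels. Slc24a3 (a sodium, potassium and calcium exchanger, chr2:145167525-145167824, plus strand) lies under a member that differed strongly between the lineages. Cyp11a1 (the enzyme that starts steroid synthesis from cholesterol, chr9:58014702-58015001, plus strand) was added after its values were seen, since its member region is set by individual libraries.
Fosl2: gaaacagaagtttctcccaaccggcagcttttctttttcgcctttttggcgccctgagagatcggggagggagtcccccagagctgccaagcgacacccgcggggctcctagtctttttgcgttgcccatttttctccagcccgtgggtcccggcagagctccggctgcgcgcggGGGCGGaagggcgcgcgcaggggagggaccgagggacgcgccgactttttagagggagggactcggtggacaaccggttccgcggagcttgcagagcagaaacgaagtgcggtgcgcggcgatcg
Map3k1: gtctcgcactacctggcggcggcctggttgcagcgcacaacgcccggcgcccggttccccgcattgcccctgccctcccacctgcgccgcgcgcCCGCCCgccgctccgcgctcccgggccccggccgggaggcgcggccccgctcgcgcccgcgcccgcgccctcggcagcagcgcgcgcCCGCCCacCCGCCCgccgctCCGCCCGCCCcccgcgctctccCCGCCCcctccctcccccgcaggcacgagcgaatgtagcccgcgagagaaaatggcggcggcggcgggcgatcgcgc
Slc24a3: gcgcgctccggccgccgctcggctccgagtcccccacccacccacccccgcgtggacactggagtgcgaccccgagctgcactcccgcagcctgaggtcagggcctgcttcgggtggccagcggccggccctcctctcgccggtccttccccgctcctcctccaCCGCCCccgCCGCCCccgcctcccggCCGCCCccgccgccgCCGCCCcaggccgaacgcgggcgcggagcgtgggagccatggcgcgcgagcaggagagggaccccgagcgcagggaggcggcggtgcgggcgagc
Cyp11a1: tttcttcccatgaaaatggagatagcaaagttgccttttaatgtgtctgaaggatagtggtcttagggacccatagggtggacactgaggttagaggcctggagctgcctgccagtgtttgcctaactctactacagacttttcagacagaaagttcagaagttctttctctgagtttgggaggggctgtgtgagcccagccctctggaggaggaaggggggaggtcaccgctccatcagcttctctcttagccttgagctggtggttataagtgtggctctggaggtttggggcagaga

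The first 3 windows are of the CpG-rich kind, with 32 CpG pairs in Fosl2, 55 in Map3k1 and 43 in Slc24a3. The Cyp11a1 window holds 1 CpG pair and no letters of any motif searched. The other motifs were also searched on both strands, and their shares are given for the members' windows, the windows of regions called in all 4 groups, and all windows, in that order. The ETS site CCGGAAG was in 9.35%, 20.3% and 8.86%, the CCAAT box in 26.9%, 38.9% and 37.4%, the TATA box TATAAA in 6.46%, 5.61% and 13.6%, and the AP-1 site TGANTCA in 4.01%, 5.09% and 7.81%. The PU.1-type site GAGGAAGT was in 4.01%, 3.51% and 3.20%. The NRF1-type site GCGCATGCG was in 0.891%, 4.42% and 1.75%, the cyclic AMP response element TGACGTCA in 1.11%, 3.66% and 1.79%, and the MiT/TFE E-box TCACGTGA in 1.56%, 2.17% and 0.974%. A match describes letters in a window and not bound factors.

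Depth differed between the libraries and ran with the number of regions named for a group. The region totals were 2268884, 2150072 and 2764146 counts in LL-MG, 1162969, 7390521 and 3050059 in LL-MDM, 2753453, 6872724 and 4399328 in MG, and 14216447, 18938222 and 6341183 in MDM. The pooled totals were 7183102, 11603549, 14025505 and 39495852 counts in that order, and the identifiers name LL-MG for 42698 regions, LL-MDM for 50422, MG for 61019 and MDM for 105173. With 1 count worth 0.846 CPM in LL-MDM 1 and 0.0519 CPM in MDM 2, a member at the median level had 3 counts in LL-MDM 1 and 59 in MDM 2. The lineage marker loci followed the descriptions, except for Tmem119 in the lipid-laden pair. The microglial regulator Sall1 summed to 64.4 to 83.6 CPM in LL-MG, 6.21 to 11.9 CPM in LL-MDM, 45.7 to 74.4 CPM in MG and 0.490 to 1.04 CPM in MDM. Itga4, an integrin gene used to mark macrophages of monocyte origin, summed to 40.6 to 55.8 CPM in LL-MG, 78.6 to 84.6 CPM in LL-MDM, 40.0 to 58.8 CPM in MG and 109 to 133 CPM in MDM. The microglial marker Tmem119 summed to 52.4 to 57.1 CPM in LL-MG, 67.6 to 80.4 CPM in LL-MDM, 42.8 to 52.1 CPM in MG and 27.8 to 35.5 CPM in MDM. It was thus higher in LL-MDM than in LL-MG. The macrophage genes Spi1 and Csf1r were open in all 12 libraries.

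MG 2 and MG 3 stand apart from MG 1. At 11 loci of basophil and mast cell genes, a list added after the data were seen, these libraries summed to 1075 and 596 CPM, against 255 CPM in MG 1, 185 to 201 CPM in LL-MG, from 210 to 235 CPM in LL-MDM, and between 303 and 322 CPM in MDM. Mcpt8, a basophil protease gene, stood at 16.1 and 7.70 CPM in MG 2 and MG 3 and at most at 0.981 CPM in any other library. Cpa3, a mast cell and basophil carboxypeptidase gene, stood at 23.6 and 10.0 CPM in MG 2 and MG 3 and at most at 3.39 CPM elsewhere, while Fcer1a, the twelfth gene of the list, has no region. Kit, of the same list, alone went the other way between MG and MDM. It stood at 26.0 and 17.5 CPM in MG 2 and MG 3, against 93.8 to 96.7 CPM in MDM, and is part of the MDM sum. At the 11 T and NK cell loci with a region, MG 2 and MG 3 summed to 352 and 264 CPM, against 200 to 246 CPM in the other 10 libraries. Of this list, Cd3e, a chain of the T-cell receptor complex, stood at 3.44 and 0.933 CPM in MG 2 and MG 3, against 5.87 to 7.35 CPM in MDM, and Ncr1 of NK cells has no region. Fewer cells of a type and fewer open copies per cell cannot be told apart in bulk libraries, and the part of other cells in the results was not tested. Beside results that use the MG libraries, the value without MG 2 and MG 3 is therefore given where it ends a call, turns a sign or moves a value by more than 1.5 times. For the lineage comparisons and the interaction over all members, medians stand in place of counts of calls, since that fit leaves MG 1 alone in its group.

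The members had somewhat fewer counts in lipid-laden libraries, and far from none. Their share of all counts was 2.79%, 2.85% and 2.94% in LL-MG (mean 2.86% ± 0.0718, SD, n = 3), 2.69%, 2.85% and 2.51% in LL-MDM (2.68% ± 0.171), 3.35%, 4.54% and 3.93% in MG (3.94% ± 0.598) and 3.39%, 3.35% and 2.98% in MDM (3.24% ± 0.223). The LL-MG libraries lay below all 3 MG libraries, and the LL-MDM libraries lay below all 3 MDM libraries. In MG the share was highest in MG 2 and MG 3. The median level of a member was 2.59, 2.70 and 2.77 CPM in LL-MG, 2.54, 2.66 and 2.29 CPM in LL-MDM, 3.19, 4.26 and 3.73 CPM in MG, and 3.00, 3.06 and 2.61 CPM in MDM. By this measure LL-MDM 2 lay above MDM 3, so those groups overlapped. These are differences along the contrast that the choice used, and they are described here without a test.

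**Figure D1:**
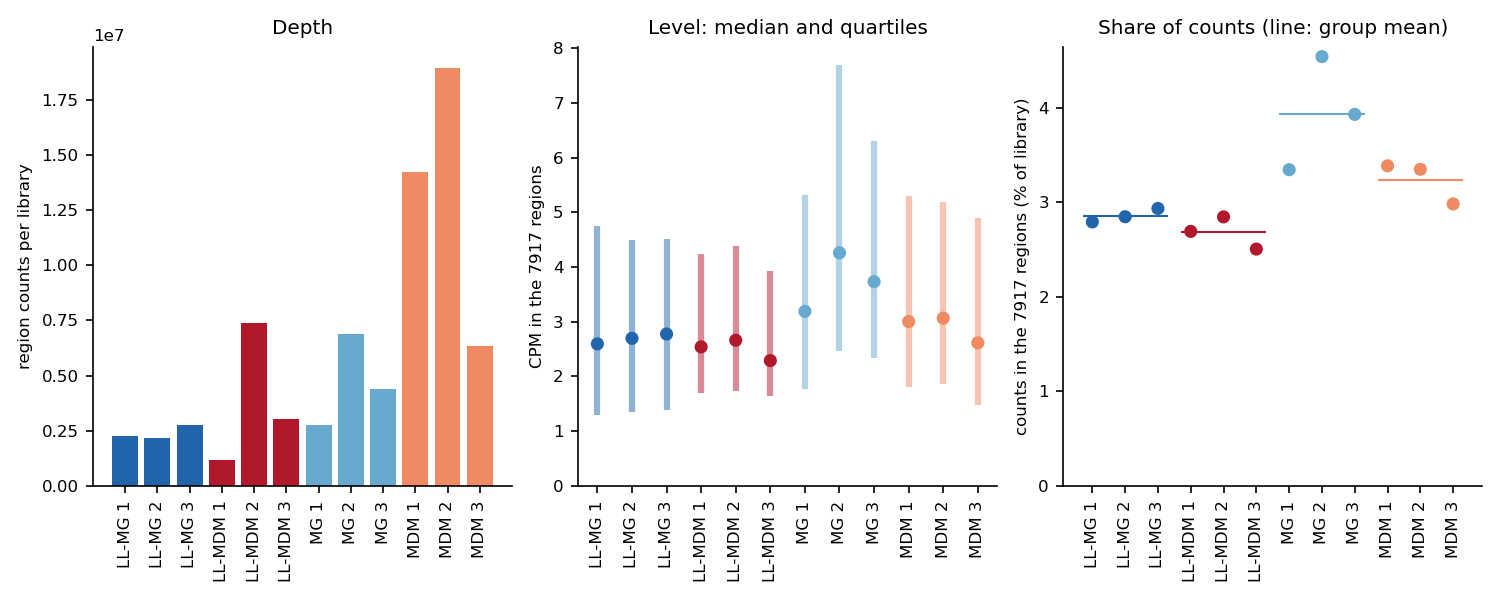
Depth and member level in each of the 12 libraries. Left, region counts per library. Middle, median CPM over the 7917 regions (points) with the quartiles (bars). Right, percent of a library's counts that fall in the 7917 regions, with a line at the mean of each group. The members hold between 2.51% and 4.54% of the counts in every library, while the totals range from 1162969 to 18938222.

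Few members were empty. In LL-MG, 361, 380 and 205 of the 7917 members had a count of 0 in libraries 1, 2 and 3, and 45 had 0 in all 3 libraries. In LL-MDM the numbers were 696, 4 and 52, and no member was at 0 in all 3 libraries. In MG they were 95, 0 and 2, and in MDM 2, 0 and 13. LL-MG 3, with 2764146 counts, had 205 members at 0, and MG 1, with 2753453 counts, had 95. The members were chosen by a call in MG and MDM and none in their lipid-laden counterparts. These numbers and the thinned shares that follow thus lie along the choice and are a description. With every library thinned to 1162969 counts, the share of members at 0 was 11.9%, 11.4% and 10.5% in LL-MG, 8.79%, 8.11% and 8.85% in LL-MDM, 6.96%, 4.60% and 3.87% in MG and 7.54%, 7.05% and 11.7% in MDM. At equal depth MDM 3 thus had more members at 0 than any LL-MDM library and than LL-MG 2 and LL-MG 3.

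Whether a region called in both groups without lipid load also had a lipid-laden call went with its level. Of such regions with a mean of up to 2 CPM over the MG and MDM libraries, 61.9% (1440 of 2328) had no lipid-laden call. The share was 39.7% from 2 to 3 CPM, 28.3% from 3 to 4 CPM, 19.5% from 4 to 6 CPM, 14.8% from 6 to 8 CPM, 10.3% from 8 to 12 CPM and 4.17% from 12 to 20 CPM. Above 20 CPM it was 0.522% (67 of 12832, 95% Wilson interval 0.411% to 0.662%, counting error only). Among the members themselves, the ratio of summed CPM in the lipid-laden libraries to that in the libraries without lipid load was 0.925 in the lowest of these classes and 0.604 in the highest. In regions of the same classes that had a lipid-laden call it was 1.44 and 0.946. Both sets were picked by their calls, so these ratios describe the choice and support nothing.

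**Figure D2:**
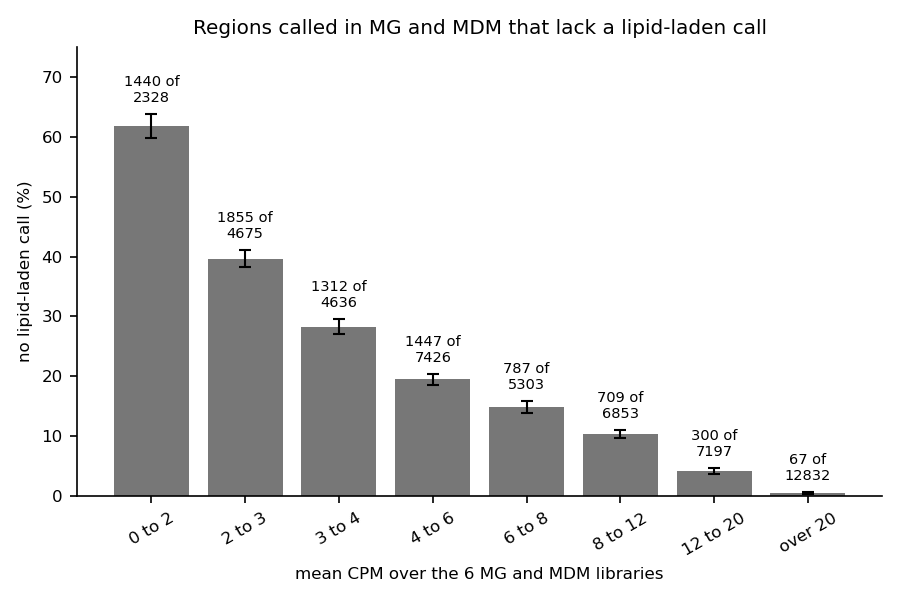
Share of the 51250 regions called in both MG and MDM that lack any lipid-laden call (the member regions), by the mean CPM over the 6 MG and MDM libraries. Bars are percentages, error bars are 95% Wilson intervals for counting error, and the numbers are members of all regions in the class. The share is 61.9% in the lowest class and 0.522% in the highest.

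The difference with lipid load varied among members. LL-MG had a mean at or above the MG mean in 1756 members (22.2%), and LL-MDM had a mean at or above the MDM mean in 3118 (39.4%). All 3 LL-MG libraries lay below all 3 MG libraries in 1786 of the 7917 members and above them in 116. The shares over all regions were 11.8% below, less than among the members, and 9.45% above, more than among them. All 3 LL-MDM libraries lay below all 3 MDM libraries in 1819 of the 7917 members and above them in 641. The shares over all regions were 22.0% below, near that among the members, and 16.9% above, more than among them. The ratio of summed mean CPM was 0.669 for LL-MG over MG and 0.816 for LL-MDM over MDM, against 0.942 and 1.03 for the regions called in all 4 groups. Of the 5932 members that passed the filter on low counts, the median fitted log2 fold change was -0.37 for LL-MG against MG and -0.18 for LL-MDM against MDM, where the medians over all 77737 tested regions were 0.00 and 0.01. Without MG 2 and MG 3 the LL-MG median was -0.23. Grouped by title, the medians were 0.27 for LL-MG against MG and 0.17 for LL-MDM against MDM. By the descriptions, both title comparisons set MG and LL-MG libraries against MDM and LL-MDM libraries. Their sign therefore cannot be read against that of the lipid differences. The test calls that go with these values are given only as a description, since the choice used this contrast. In LL-MG against MG, 10 members (0.169%) were higher and 1036 (17.5%) lower, with 4.22% higher and 8.01% lower among all tested regions. In LL-MDM against MDM, 213 (3.59%) were higher and 870 (14.7%) lower, with 15.4% higher and 14.1% lower among all tested regions. The LL-MG calls rested on the MG libraries. Without MG 2 and MG 3, 0 members were higher and 7 lower, with 10 and 32 among all tested regions, and without MG 1 there were 61 higher and 1943 lower. Over all tested regions, leaving out MG 1 gave 9305 higher and 13024 lower. Leaving out MG 2 alone gave 1 member higher and 457 lower, with 946 and 2088 among all tested regions. Leaving out any 1 LL-MG library gave 476 to 509 members lower, with 2501 to 2833 among all tested regions. With the titles' mouse number as a block, 0 members were called in LL-MG against MG, where 1063 had an unadjusted p under 0.05, and 106 in LL-MDM against MDM. Over all tested regions the block left 0 and 3934 calls in these 2 comparisons. In LL-MDM against MDM the calls numbered 528 without LL-MDM 2, 649 without LL-MDM 3 and 685 without MDM 1, against 1083 with all libraries. Calls over all tested regions fell as well, to 11750, 17082 and 15478 in that order, against 22969.

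The members at the lower end of the average lipid difference had no counts in LL-MG or nearly none. A region inside Asap1 (chr15:64205630-64205870), which encodes a regulator of Arf GTPases and the cytoskeleton, had 0 CPM in all 3 LL-MG libraries, 1.69, 1.20 and 0.327 CPM in LL-MDM, 1.06, 12.1 and 5.83 CPM in MG, and 4.96, 5.71 and 8.33 CPM in MDM. Against a floor of 3 counts over the group, LL-MG was at least 15.7-fold lower than MG. MG 2 and MG 3 were far above MG 1. The same order held in 3 other members of this end, which lie 63915, 72548 and 280335 bp from the nearest protein-coding genes Aff3, Rbpj and Rpl38. The region nearest to Rbpj (chr5:53482948-53483231) had 0 CPM in LL-MG and was at least 6.04-fold lower there than in MG, while MG 1 stood at 0.709 CPM, below the 5.03 to 5.72 CPM of MDM. The region nearest to Rpl38 (chr11:114387162-114387483) had 1 count in LL-MG and 214 in MG, a ratio of CPM of 0.00832 (95% counting interval 0.00021 to 0.0469), with 1.42 CPM in MG 1 against 24.7 CPM in MG 2 and 13.8 CPM in MG 3. The region nearest to Aff3 (chr1:38694093-38694647) had 2 counts in LL-MG and 263 in MG, a ratio of 0.0135 (0.00163 to 0.0494). MG 1 held 3 counts at the Asap1 region and 2, 4 and 10 at those nearest to Rbpj, Rpl38 and Aff3, so these folds and ratios rest on MG 2 and MG 3.

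At the other end, the call and the counts went opposite ways. A region inside Fbxl13 (chr5:21492376-21492500), an F-box protein gene, had 5.19, 5.39 and 4.51 CPM in LL-MG, 0.846, 2.13 and 2.62 CPM in LL-MDM, 2.48, 1.47 and 1.87 CPM in MG, and 0.628, 0.779 and 1.14 CPM in MDM. The LL-MG libraries were all above the MG libraries although the region has no LL-MG call. A region 22103 bp from Il10 (chr1:130997640-130997742), the gene of an anti-inflammatory cytokine of macrophages, had 4.76, 7.19 and 4.16 CPM in LL-MG, 7.62, 6.39 and 4.58 CPM in LL-MDM, 3.90, 3.60 and 3.73 CPM in MG, and 1.54, 1.61 and 2.61 CPM in MDM. All lipid-laden libraries lay above all libraries without lipid load. Regions inside Myo1d, a class I myosin gene, Dntt, the gene of a DNA polymerase of lymphoid cells, and Txndc11 complete this end, at 0.327 to 6.59 CPM in single libraries.

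The members with the highest levels show the same spread. A region inside Map3k1 that covers its start (chr13:111808641-111809554) had 23.8, 28.3 and 25.7 CPM in LL-MG, 20.3, 28.7 and 25.5 CPM in LL-MDM, 35.8, 33.9 and 34.5 CPM in MG, and 42.2, 41.1 and 40.2 CPM in MDM. The lipid-laden libraries lay below the others with no overlap. A region inside Junb (chr8:84977709-84977898), another AP-1 subunit gene, had 37.2, 24.3 and 28.8 CPM in LL-MG, 30.5, 29.1 and 29.1 CPM in LL-MDM, 38.6, 35.2 and 31.0 CPM in MG, and 35.3, 31.7 and 33.7 CPM in MDM, and LL-MG overlapped MG. A region 5421 bp from Tlcd2 (chr11:75462365-75462603) had 29.0, 28.3 and 33.3 CPM in LL-MG and 29.8, 38.2 and 34.7 CPM in MG, and 24.5, 25.9 and 24.9 CPM in LL-MDM and 27.6, 29.4 and 34.6 CPM in MDM. The member with the highest level of all (chr14:54227295-54227835) lies between the T-cell receptor alpha locus and the housekeeping gene Dad1, 3097 bp past the end of Trac and 7650 bp before Dad1, in the interval known to hold the T-cell receptor alpha enhancer. It had 21.2, 22.5 and 15.3 CPM in LL-MG, 24.5, 24.9 and 15.0 CPM in LL-MDM, 33.3, 116 and 75.1 CPM in MG, and 34.0, 33.4 and 37.1 CPM in MDM. MG 2 and MG 3 set its rank. A region inside Nfatc1, the gene of a calcium-regulated transcription factor, had 3.89, 5.84 and 8.32 CPM in LL-MG, 12.7, 12.9 and 9.81 CPM in LL-MDM, 13.1, 74.4 and 41.3 CPM in MG, and 26.1, 26.1 and 28.6 CPM in MDM. It too was highest in MG 2 and MG 3. Regions near Pim1, Brd2 and Zfp36l1 (the last 2346 bp away, inside the predicted gene Gm52006) complete the 8 highest, at 13.8 to 49.8 CPM in single libraries.

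Between the lineages, which the choice of members did not set against each other, the question was whether regions called in both MG and MDM were equally open in them. The calls were made on these same libraries, and a call in the shallower group takes a higher level, so the split of directions is a description. In MG against MDM, 1843 of the 5932 tested members were higher (31.1%) and 528 lower (8.90%) at an edgeR adjusted p under 0.05, with 26.8% higher and 24.9% lower among all tested regions. The share of members higher was thus near the background, and the share lower was below it. The median log2 fold change was 0.34 over the members and 0.07 over all tested regions. Without MG 2 and MG 3, which leaves MG 1 alone in its group, the median was 0.11 over the members and -0.03 over all tested regions. The members' median relative to all tested regions was then 0.14, against 0.27 with all libraries. The split of directions also moved with single MG libraries. Leaving out MG 2 alone gave 1263 members higher and 642 lower of 5343 tested. Leaving out MG 1 alone gave 2539 higher and 592 lower of 7223 tested. Over all tested regions the calls numbered 36248 and 49727 in that order, against 40161 with all libraries. With every library thinned to 1162969 counts, 1129 members passed the filter, of which 133 were higher and 123 lower. Of the 34590 regions that passed it then, 10832 were called. With groups by title 0 members were called, and 8 had an unadjusted p under 0.05. Over all tested regions 0 were called as well, and by the descriptions both sides then hold only MDM and LL-MDM libraries. In 39.5% of the 7917 members, and in 49.8% of the members called higher in MG, the MG libraries ran in the order MG 2, MG 3, MG 1, against 26.7% of all regions and 31.6% of all regions called higher.

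In LL-MG against LL-MDM, 283 members were higher (4.77%) and 232 lower (3.91%), with 10.3% higher and 11.2% lower among all tested regions. The median log2 fold change was 0.06, against -0.03 over all tested regions. Without MG 2 and MG 3 these medians were 0.08 and -0.03. Both shares lay under the background, in a set whose levels give few counts to the lipid-laden libraries. The count depended on single libraries. It was 240 without LL-MDM 2, 284, 312 and 334 without LL-MG 1, 2 and 3, 342 without LL-MDM 3 and 909 without MG 1, against 515 with all libraries. Over all tested regions the count was 16713 with all libraries, 10372 without LL-MDM 2 and 12627 without LL-MDM 3. It was 11990, 12332 and 12806 without LL-MG 1, 2 and 3, and 21996 without MG 1. With groups by title 0 members and 0 of all tested regions were called, and 56 members had an unadjusted p under 0.05. By the descriptions both sides then hold only MG and LL-MG libraries. Members higher in microglia in both lineage comparisons numbered 188 (3.17%), and members lower in both numbered 83 (1.40%), with 8.47% and 8.31% among all tested regions.

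**Figure D3:**
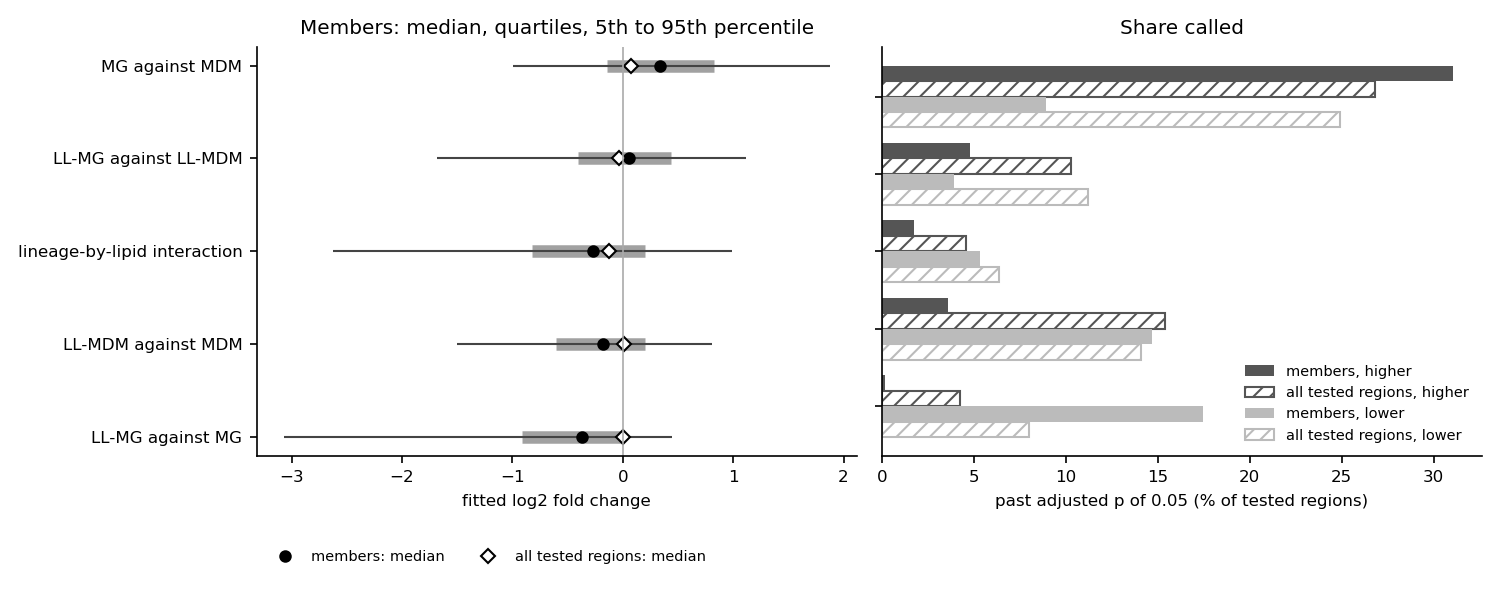
Fitted log2 fold changes (left) and the share of regions past an adjusted p of 0.05 (right) for the 5932 tested members and for all 77737 tested regions. Points are medians over members, thick bars their quartiles, thin lines their 5th to 95th percentile and open diamonds the medians over all tested regions. In MG against MDM the share of members called higher is 31.1%, against 26.8% of all tested regions. The last 3 comparisons are, or are built from, the contrast that chose the members and are a description.

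A region inside Sgce (chr6:4747101-4747244), an imprinted gene of the sarcoglycan family that shares its promoter area with Peg10, had the smallest p among members higher in MG. It had 7.35, 6.74 and 7.98 CPM in LL-MG, 2.54, 1.73 and 2.29 CPM in LL-MDM, 11.0, 9.34 and 10.0 CPM in MG, and 0.908, 1.14 and 0.980 CPM in MDM. Microglia were above monocyte-derived macrophages in both lipid states without overlap, at a log2 fold change of 3.26 ± 0.27 (SE) for MG against MDM (edgeR adjusted p = 8.21e-12) and of 1.88 ± 0.34 for LL-MG against LL-MDM (adjusted p = 0.00013). A region inside Iffo1 (chr6:125152353-125152559), the gene of an intermediate filament family protein, had 13.4, 15.3 and 12.5 CPM in LL-MG, 4.23, 4.52 and 3.27 CPM in LL-MDM, 17.4, 16.2 and 10.7 CPM in MG, and 3.21, 3.84 and 2.45 CPM in MDM. It was higher in microglia by 1.73 ± 0.29 in the lipid-laden pair (adjusted p = 3.37e-05) and by 2.15 ± 0.23 in the pair without lipid load (adjusted p = 1.66e-09). Regions inside Ttc7, Plxdc2, Prpsap2 and Cxxc5 were likewise higher in LL-MG than in LL-MDM and in MG than in MDM, by 1.33 to 2.92 in the lipid-laden pair. Prpsap2 encodes a partner of the enzyme that makes phosphoribosyl pyrophosphate, and Cxxc5 encodes a zinc finger protein that binds CpG.

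Other members were higher in MG than in MDM with little difference in the lipid-laden pair. The region at the start of Slc24a3 (chr2:145167726-145167961), whose promoter window is printed above, had 4.32, 8.54 and 7.28 CPM in LL-MG, 6.77, 4.26 and 4.58 CPM in LL-MDM, 10.3, 19.5 and 13.1 CPM in MG, and 1.88, 1.87 and 1.80 CPM in MDM. MG exceeded MDM by 2.97 ± 0.26 (adjusted p = 3.06e-11), and by 2.45 without MG 2 and MG 3. The difference for LL-MG against LL-MDM was 0.51 ± 0.33 (adjusted p = 0.304). A region inside Cerk (chr15:86159812-86160001), the kinase that makes ceramide 1-phosphate, had 3.46, 4.94 and 4.51 CPM in LL-MG, 5.08, 2.93 and 1.96 CPM in LL-MDM, 6.38, 17.5 and 13.1 CPM in MG, and 1.54, 1.61 and 2.45 CPM in MDM. MG exceeded MDM by 2.87 ± 0.29 (adjusted p = 9.88e-10) with all libraries and by 1.86 without MG 2 and MG 3. Regions at Ankrd13a, Tedc2 and Dupd1 gave log2 fold changes of 2.29, 2.32 and 3.12, and of 1.68, 1.88 and 2.20 without MG 2 and MG 3, and each stayed past the threshold.

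The members lower in microglia with the smallest p were highest in MDM and low in the other groups. A region inside Thada (chr17:84419706-84420576) had 5.19, 5.39 and 2.08 CPM in LL-MG, 11.0, 11.2 and 9.16 CPM in LL-MDM, 6.73, 10.8 and 7.70 CPM in MG, and 46.5, 43.2 and 49.3 CPM in MDM. It was lower in MG than in MDM by 2.40 ± 0.18. A region 6112 bp from Stk17b (chr1:53791349-53792198), a kinase gene of lymphocytes, had 0.865, 1.80 and 1.73 CPM in LL-MG, 11.0, 9.45 and 7.85 CPM in LL-MDM, 4.96, 12.3 and 7.70 CPM in MG, and 46.5, 38.5 and 44.4 CPM in MDM. Its log2 fold change was -2.61 ± 0.40 for LL-MG against LL-MDM (adjusted p = 1.06e-05) and -2.27 ± 0.19 for MG against MDM (adjusted p = 2.02e-11). A region inside Zbtb46 (chr2:181436193-181436598), a transcription factor gene that marks classical dendritic cells, had 1.30, 0.449 and 1.39 CPM in LL-MG, 1.69, 1.73 and 0.981 CPM in LL-MDM, 1.77, 2.46 and 2.57 CPM in MG, and 22.7, 19.4 and 19.3 CPM in MDM. MDM stood far above the other 9 libraries, of which those of MG were highest. The dendritic cell loci summed to 538 to 592 CPM in LL-MG, 503 to 537 CPM in LL-MDM, 506 to 577 CPM in MG and 688 to 759 CPM in MDM, and the part of such cells was not tested.

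A region 5823 bp from Il21r (chr7:125597145-125597429), the gene of the interleukin 21 receptor, had 7.78, 7.19 and 5.90 CPM in LL-MG, 8.46, 7.58 and 7.20 CPM in LL-MDM, 4.96, 5.41 and 5.83 CPM in MG, and 21.3, 23.6 and 26.1 CPM in MDM. A region inside Txndc5 (chr13:38503425-38503867), the gene of a protein disulphide isomerase of the endoplasmic reticulum, had 4.32, 5.84 and 5.90 CPM in LL-MG, 2.54, 5.46 and 5.23 CPM in LL-MDM, 5.67, 3.44 and 2.10 CPM in MG, and 20.7, 19.0 and 19.9 CPM in MDM. In both, MDM alone was high. The log2 fold changes for MG against MDM were -2.11 ± 0.20 for Il21r (adjusted p = 1.3e-10) and -2.49 ± 0.25 for Txndc5 (adjusted p = 4.39e-10), with -0.14 ± 0.26 and 0.11 ± 0.33 for LL-MG against LL-MDM. A region 63993 bp from Rad51b (chr12:79912253-79912576) lay between 1.73 and 5.85 CPM in the other 9 libraries, against 15.4 to 16.5 CPM in MDM.

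**Figure D4:**
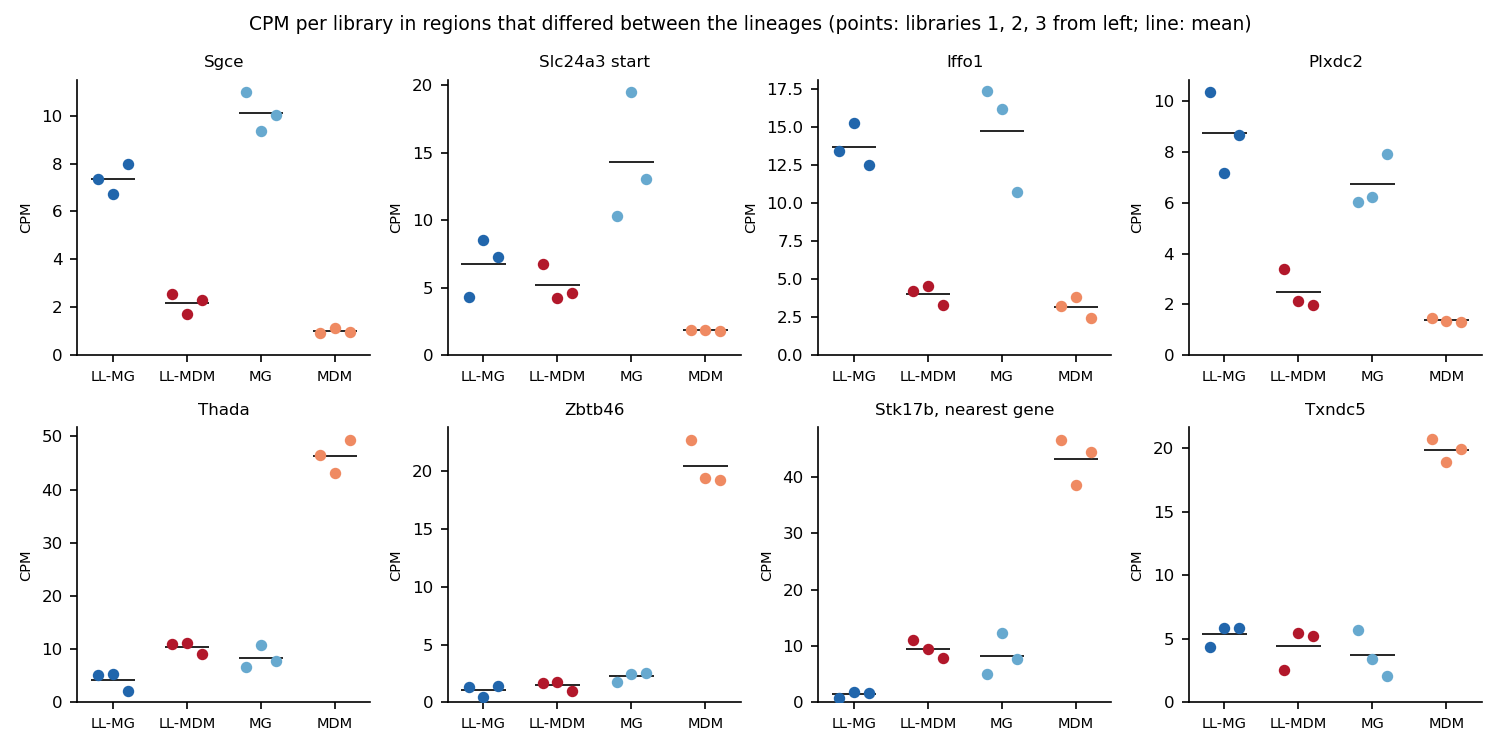
CPM in each library for 8 members that differed between the lineages, by group from left LL-MG, LL-MDM, MG and MDM. Points are libraries 1, 2 and 3 from left to right and lines are means. The upper regions are higher in microglia, and the lower regions are highest in MDM, with 43.2 to 49.3 CPM at Thada and 19.3 to 22.7 CPM at Zbtb46.

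Among the members lowest in LL-MG against LL-MDM, LL-MG held very few counts. A region 852 bp from Plscr2 (chr9:92274307-92274750), a phospholipid scramblase gene beside Plscr1, had 0.432, 0 and 0 CPM in LL-MG, 11.0, 4.66 and 4.91 CPM in LL-MDM, 1.42, 6.72 and 4.20 CPM in MG, and 20.6, 19.2 and 20.6 CPM in MDM. LL-MG held 1 count against 63 in LL-MDM, a ratio of CPM of 0.0251 (95% counting interval 0.000627 to 0.145, edgeR adjusted p = 6.56e-05). A region 20569 bp from Fut8 (chr12:77216658-77216861), the enzyme gene of core fucosylation, had 1 count in LL-MG against 55 in LL-MDM, a ratio of 0.0288 (0.000716 to 0.167, adjusted p = 6.74e-05). Inside Cytip (chr2:58135103-58135292), which encodes a cytohesin-binding protein of leukocytes, LL-MG held 2 counts against 51 in LL-MDM, a ratio of 0.0621 (0.00732 to 0.236, adjusted p = 0.000101). Inside Cdhr3 (chr12:33040903-33041063), a cadherin-related gene, LL-MG held 2 counts against 43 in LL-MDM, a ratio of 0.0737 (0.00865 to 0.283, adjusted p = 0.000184). A region inside Rbbp8nl (chr2:180276787-180277099) had 1.30, 1.80 and 2.08 CPM in LL-MG, 7.62, 8.38 and 10.1 CPM in LL-MDM, 4.96, 16.2 and 10.3 CPM in MG, and 16.1, 15.3 and 19.8 CPM in MDM. In these 5 regions MG 1 was the lowest of the MG libraries.

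The interaction sets the lipid difference of microglia against that of monocyte-derived macrophages. It is built from both lipid differences along which the members were chosen, so its values and calls are a description. At an adjusted p under 0.05 it was higher in 102 members (1.72%) and lower in 315 (5.31%), with 4.56% higher and 6.34% lower among all tested regions. The median was -0.27 over the members and -0.13 over all tested regions. Without MG 2 and MG 3, which leaves MG 1 alone in its group, these medians were -0.06 and -0.05. The count of calls turned on single libraries. It was 1347 without MG 1, 154 without LL-MDM 2, and 223 to 273 without LL-MDM 3, MDM 1, MDM 2 or any 1 LL-MG library. With thinned libraries it was 27 of 1129 tested members. Over all tested regions the count was 8469 with all libraries, 3949 without LL-MDM 2, 17832 without MG 1 and 1294 with thinned libraries. With groups by title 0 members and 0 of all tested regions were called, and 26 members had an unadjusted p under 0.05. A region 35345 bp from Mrps28 (chr3:8766659-8766801), a mitochondrial ribosomal protein gene, had 2.16, 1.80 and 3.47 CPM in LL-MG, 5.08, 4.92 and 1.96 CPM in LL-MDM, 3.90, 8.85 and 6.30 CPM in MG, and 0.977, 1.40 and 0.980 CPM in MDM. Its interaction was -3.16, and -2.39 without MG 2 and MG 3. A region 69933 bp from Rmi1 (chr13:58481082-58481177) had 2.59, 1.35 and 2.43 CPM in LL-MG, 5.92, 4.39 and 5.56 CPM in LL-MDM, 5.31, 6.72 and 4.66 CPM in MG, and 1.82, 1.56 and 1.31 CPM in MDM. Its interaction was -3.01, and here MG 1 lay between MG 2 and MG 3. A region 10382 bp from Zfp710 (chr7:80013935-80014432), a zinc finger gene, had 3.39 to 7.44 CPM in LL-MG, LL-MDM and MG, against 24.5, 25.2 and 26.8 CPM in MDM.

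The position of the members was not used to choose them. By overlap with protein-coding gene spans, 59.4% lay inside a gene, against 68.0% of the regions called in all 4 groups and 59.6% of all regions. The reference table gives spans only, so exons, introns and UTRs were not told apart. A RefSeq promoter window was overlapped by 411 members (5.19%), against 26.0% of the regions called in all 4 groups, 5.19% of those called in both groups without lipid load and LL-MDM, and 6.18% of those called in both groups without lipid load and LL-MG. Members lay beside promoters more than on them, where the zone beside is wider than the window of 300 bases. The regions called in both groups without lipid load and 1 lipid-laden group had the same order. Within 1 kb of a gene start but outside a promoter window were 834 members (10.5%), against 4.55% of the regions called in all 4 groups, 6.44% of those with an LL-MDM call, 7.89% of those with an LL-MG call and 6.85% of all regions. Within 1 kb of a region called in all 4 groups were 1751 members (22.1%), against 15.7% of the regions with an LL-MDM call and 19.7% of those with an LL-MG call. Regions are not replicates and a narrow region meets a window less often than a wide one, so these shares carry no test.

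At gene starts, the member under the Fosl2 window (chr5:32136292-32136637) had 21.6, 19.3 and 22.2 CPM in LL-MG, 28.8, 25.8 and 25.8 CPM in LL-MDM, 22.7, 33.4 and 30.1 CPM in MG, and 31.8, 29.1 and 31.9 CPM in MDM. LL-MG lay below MG, by a narrow margin at MG 1, and LL-MDM lay below MDM. A member at the start of Fbxo11 (chr17:88064496-88064937), a ubiquitin ligase subunit gene, had 21.6, 24.3 and 23.9 CPM in LL-MG, 27.1, 24.7 and 23.2 CPM in LL-MDM, 25.2, 29.7 and 23.6 CPM in MG, and 25.7, 23.8 and 24.3 CPM in MDM. The groups of each lineage overlapped, although no lipid-laden call was named. A member at a start of Foxp1 (chr6:99028109-99028991), a forkhead repressor gene of myeloid and lymphoid cells, had 20.3, 20.7 and 25.3 CPM in LL-MG, 16.9, 18.6 and 21.6 CPM in LL-MDM, 22.0, 21.3 and 22.6 CPM in MG, and 27.2, 26.8 and 31.4 CPM in MDM. Ubtf, a ribosomal RNA gene activator, and Bbc3, the p53 target PUMA, also had members at their starts at 16.1 to 37.5 CPM in single libraries.

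Members were scattered over genes. Within 50 kb of 4976 protein-coding genes lay 7270 members, and 3507 of these genes had 1 member. Foxp1 had 10, out of 120 regions, with a median level of 2.80 CPM in LL-MG, 2.99 CPM in LL-MDM, 6.86 CPM in MG and 2.99 CPM in MDM. Runx1, a regulator of blood cell and macrophage development, had 8 out of 69, with 1.87, 2.49, 7.58 and 2.39 CPM in LL-MG, LL-MDM, MG and MDM. Arid5b and Bcor, genes of chromatin cofactors, and Emb also had 8. The MG levels at Foxp1 and Runx1 stand above those of the other groups, in libraries of which MG 2 and MG 3 are apart.

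For every list below, the counts of called members stand against shares among all tested regions. These were 26.8% higher and 24.9% lower in MG against MDM, and 10.3% higher and 11.2% lower in LL-MG against LL-MDM. Each list had few tested members, so its counts are a description. Of the gene lists, the macrophage transcription factors held 21 members in 190 regions (11.1%, against 6.72% of all regions), from 8 of 18 genes. Of the 18 tested, 4 were higher and 2 lower in MG than in MDM (2 and 5 of 19 without MG 2 and MG 3), and 2 were higher and 1 lower in LL-MG than in LL-MDM. The second Fosl2 member lies 2956 bp from the gene (chr5:32133041-32133516), at 20.1 to 25.9 CPM in LL-MG, 26.2 to 29.3 CPM in LL-MDM, 23.0 to 31.8 CPM in MG and 33.1 to 38.9 CPM in MDM. Microglia identity genes held 8 members in 129 regions, of which 2 of 8 tested were higher in MG than in MDM and 0 lower (1 and 0 of 6 without MG 2 and MG 3). The marker genes Sall1, Tmem119 and P2ry12 had none. A region 2434 bp from Siglech (chr7:55765374-55765720), a lectin gene of microglia and plasmacytoid dendritic cells, had 6.49, 7.64 and 6.59 CPM in LL-MG, 1.69, 2.00 and 1.64 CPM in LL-MDM, 8.15, 3.77 and 6.06 CPM in MG, and 8.94, 8.31 and 7.02 CPM in MDM. It was higher in LL-MG than in LL-MDM by 1.88 ± 0.37 (adjusted p = 0.000307), while the difference for MG against MDM was -0.53 ± 0.24 (adjusted p = 0.065), and -0.022 without MG 2 and MG 3. Monocyte-derived macrophage identity genes held 7 members in 104 regions, with 1 higher and 1 lower of 6 tested in MG than in MDM (0 and 4 of 6 without MG 2 and MG 3). A region inside Vim (chr2:13575377-13575717), the intermediate filament vimentin, had 6.05 to 8.99 CPM in LL-MG, 8.46 to 13.1 CPM in LL-MDM, 8.86 to 19.0 CPM in MG and 25.4 to 29.6 CPM in MDM, at -0.78 ± 0.19 for MG against MDM (adjusted p = 0.000696), and at -1.62 without MG 2 and MG 3 (adjusted p = 9.69e-08). A region inside Cd44 (chr2:102887134-102887391), the hyaluronan receptor, had 1.35 to 2.08 CPM in LL-MG, 6.65 to 7.62 CPM in LL-MDM, 1.42, 12.3 and 7.00 CPM in MG, and 6.86 to 8.31 CPM in MDM.

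Antigen presentation genes held 10 members in 166 regions, of which 2 were higher and 4 lower in MG than in MDM (0 and 4 of 9 tested without MG 2 and MG 3) and 0 were called in LL-MG against LL-MDM. Inside H2-Ab1, the MHC class II beta chain, a region (chr17:34264051-34264272) had 7.35, 5.84 and 8.32 CPM in LL-MG, 10.2, 9.71 and 5.56 CPM in LL-MDM, 11.3, 6.55 and 9.33 CPM in MG, and 31.3, 27.9 and 27.3 CPM in MDM. It was lower in MG than in MDM by 1.73 ± 0.20 on the log2 scale (adjusted p = 8.7e-09). Lipid uptake, storage and efflux genes held 6 members in 207 regions (2.90%), of which 2 of 6 tested were higher in MG than in MDM (1 of 6 without MG 2 and MG 3). Among them a region inside Apoe (chr7:19701171-19701307), whose product carries lipid out of macrophages, had 5.19, 8.99 and 5.20 CPM in LL-MG, 3.39, 6.65 and 6.21 CPM in LL-MDM, 9.57, 6.72 and 8.63 CPM in MG, and 4.05, 4.52 and 4.41 CPM in MDM. MG exceeded MDM by 0.90 ± 0.24 (adjusted p = 0.00218). A region inside Abcg1 (chr17:31060712-31060893), a cholesterol exporter gene, had 7.63 to 15.1 CPM in LL-MG, 5.89 to 6.77 CPM in LL-MDM, 6.23 to 10.3 CPM in MG and 5.39 to 6.59 CPM in MDM. Lipid-associated macrophage genes held 4 members in 106 regions, among them a region inside Ctsb (chr14:63123773-63123952), the lysosomal protease cathepsin B, with 13.2 to 20.2 CPM in LL-MG, 11.0 to 12.4 CPM in LL-MDM, 11.6 to 13.8 CPM in MG and 4.99 to 7.19 CPM in MDM. MG exceeded MDM there by 1.12 ± 0.21 (adjusted p = 3.19e-05).

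The remaining macrophage lists held members at 3 of 82 regions (interferon response), 9 of 126 (NF-kB and inflammatory genes), 13 of 156 (lysosome and autophagy), 7 of 165 (immunosuppression and repair), 6 of 75 (phagocytosis and Fc receptors), 19 of 215 (cytoskeleton and migration), 10 of 147 (cell cycle), 7 of 98 (hypoxia and glycolysis) and 7 of 98 (chromatin and RNA housekeeping). Inside Tfeb (chr17:47766721-47766969), the gene of a master regulator of lysosome formation, a member had 9.89 to 21.5 CPM in LL-MG, 13.4 CPM or more in LL-MDM, 18.4 to 24.4 CPM in MG and 13.7 to 16.2 CPM in MDM. MG exceeded MDM there by 0.57 ± 0.18 (adjusted p = 0.00854), but by 0.29 without MG 2 and MG 3 (adjusted p = 0.366). Inside Socs3, a feedback inhibitor of cytokine signalling, the difference for MG against MDM was 0.45 ± 0.17 (adjusted p = 0.0251), and -0.12 without MG 2 and MG 3 (adjusted p = 0.745). Inside Arhgap15, a Rac regulator gene, a member had 0.432, 0.899 and 0 CPM in LL-MG, 1.69, 2.13 and 1.64 CPM in LL-MDM, 2.48, 31.9 and 16.8 CPM in MG, and 2.09 to 3.27 CPM in MDM, so MG 1 lay within the range of MDM.

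Lists of other cell types held 4 members in 64 regions for oligodendrocytes, 1 in 58 for astrocytes, 3 in 34 for neurons, 5 in 66 for endothelium and pericytes, 5 in 44 for T and NK cells, 3 in 42 for B cells, 1 in 27 for neutrophils, 5 in 73 for dendritic cells and 4 in 62 for border-associated macrophages. Basophil and mast cell genes held 10 members in 81 regions (12.3%), and 5 of the 8 tested were higher in MG than in MDM and 2 lower, where 26.8% and 24.9% of all tested regions were. Without MG 2 and MG 3, 3 of 8 were higher and 1 lower. The member at the start of Cyp11a1 (chr9:58014468-58015116), whose promoter window is printed above, had 1.30, 3.15 and 2.43 CPM in LL-MG, 1.69, 2.00 and 1.96 CPM in LL-MDM, 9.21, 79.1 and 41.3 CPM in MG, and 2.72, 4.10 and 3.43 CPM in MDM. MG exceeded MDM by 3.70 ± 0.62 (adjusted p = 0.000979), and by 1.40 without MG 2 and MG 3 (adjusted p = 0.00159). At the start of Gata2, a transcription factor gene of blood progenitors, basophils and mast cells, a member (chr6:88193568-88194008) had 11.7, 9.44 and 11.4 CPM in LL-MG, 4.23, 4.92 and 2.94 CPM in LL-MDM, 14.5, 45.0 and 31.0 CPM in MG, and 3.07, 2.60 and 1.96 CPM in MDM. MG exceeded MDM by 3.56 ± 0.30 (adjusted p = 1.23e-08), and by 2.44 without MG 2 and MG 3 (adjusted p = 4.16e-11). Inside Tbx21, which encodes T-bet, a regulator of T and NK cells, a member (chr11:97103713-97104000) had 1.30, 1.35 and 1.04 CPM in LL-MG, 1.69, 1.60 and 2.62 CPM in LL-MDM, 8.50, 38.7 and 20.8 CPM in MG, and 2.23, 1.97 and 1.31 CPM in MDM. All 3 MG libraries lay above the other 9, with MG 2 and MG 3 highest. A member inside Pecam1, the endothelial and leukocyte adhesion molecule CD31, had 2.13, 28.5 and 12.1 CPM in MG and 0.449 to 3.33 CPM in all other libraries, so MG 1 was within their range.

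**Figure D5:**
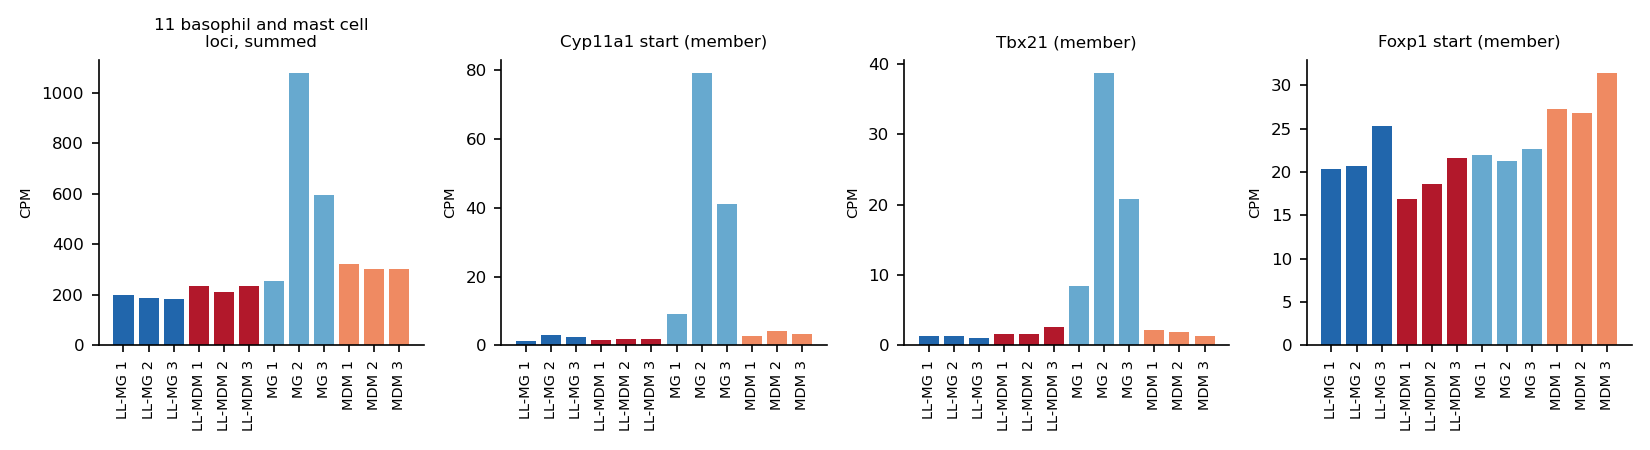
CPM per library, summed over the 11 basophil and mast cell loci with a region (left) and for 3 member regions, at the start of Cyp11a1, inside Tbx21 and at a start of Foxp1. Bars are single libraries, grouped as LL-MG, LL-MDM, MG and MDM. MG 2 and MG 3 stand highest at the loci (1075 and 596 CPM) and at the Cyp11a1 start (79.1 and 41.3 CPM), whereas at the Foxp1 start the MG libraries lie between 21.3 and 22.6 CPM.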

How the data were processed

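ATAC-seq measured open chromatin in 12 libraries of sorted tumour macrophages. Per the labels' protocols, nuclei were tagmented with Tn5 and size-selected fragments were amplified in 2 rounds of PCR. The submitters' processing notes name the mm10 build, deepTools 3.5.1, Picard 2.12.0, SAMtools 1.10 and BWA 0.7.17-r1188. How peaks were called, per library or pooled, how duplicates were treated and whether reads were shifted for Tn5 is not given in the sources used here. Whole-number counts per region were used as the authors deposited them. Region starts and ends are printed as the table gives them. All 12 columns were matched to a sample (0 unmapped).

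The members are the regions whose identifier names a microglia and a monocyte-derived macrophage call without lipid load and no lipid-laden call. All 7917 carry consensus calls only. The members, the 24 gene lists and the rule for named regions were chosen with earlier results of these data known, and the basophil and mast cell list was added after seeing the data. Regions named in the text are the 8 members with the highest level, up to 6 per direction and lineage comparison by p (adjusted p under 0.05, absolute log2 fold change of at least 1, no overlap between libraries), up to 3 per direction of the interaction, the 5 lowest and 5 highest by average lipid difference at a mean of at least 2 CPM, up to 3 members of each gene list by level, up to 6 members at a gene start, and the genes with most members. Of these, 1 region is not reported here. A region belongs to a list gene when it overlaps its span or 5 kb on either side. A nearest gene is protein-coding and, unless a distance is given, the region overlaps its span.

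Counts of all 117835 regions were fitted with edgeR 4.0.16 in R 4.3.3 (filterByExpr on the group, TMM, glmQLFit robust, glmQLFTest) over all 12 libraries and 4 groups, and p-values were adjusted by Benjamini-Hochberg over the 77737 regions tested. The fit was tested on simulated data. Of the members 1985 did not pass the filter. CPM use TMM-scaled totals. The interaction is the LL-MG minus MG difference minus the LL-MDM minus MDM difference. Alternatives were RLE scaling, total counts, loess offsets, no filter, DESeq2 1.42.0, libraries thinned to 1162969 counts, groups by title, the titles' mouse number as a block, leaving out each library, and leaving out MG 2 and MG 3. Region totals ranged from 1162969 to 18938222 counts, and counting intervals cover counting error only, since PCR copies are not separate molecules. Sequences are RefSeq promoter windows of GRCm38.p6, the assembly of mm10, and sequence of the regions themselves was not used here.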

Additional observations from a re-analysis of the deposited data

Results flagged for a closer look

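For 20 of the named members the interaction, which sets the lipid difference of microglia against that of monocyte-derived macrophages, had an edgeR adjusted p under 0.05, and its value is given here on the log2 scale. The members were chosen by calls along both lipid differences, so these values describe the chosen regions and support nothing further. In 6 it was positive, at 2.64 for Zbtb46, 2.60 for Txndc5, 2.41 for Siglech, 2.08 for the region nearest to Zfp710, 1.97 for that nearest to Il21r and 1.50 for the first H2-Ab1 region. At all 6, MDM was the highest group. In 14 it was negative. At regions where the 3 LL-MG libraries held 1 to 2 counts together it was -4.65 for the region nearest to Fut8 and -3.30 for Cdhr3, and such fitted values depend on the prior count.

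The others were -4.24 for Tbx21, -3.29 for F13a1, -3.16 for the region nearest to Mrps28, -3.01 for that 69933 bp from Rmi1, -2.46 for Slc24a3, -2.34 for Dupd1, -2.31 for Cerk, -2.20 for Gata2, -2.11 for Tedc2, -1.88 for Ankrd13a, -1.73 for Rbbp8nl and -1.38 for Sgce. Without MG 2 and MG 3, the interactions of Cdhr3 (adjusted p = 0.0806), F13a1 (0.101), Dupd1 (0.0685), Cerk (0.216), Gata2 (0.106), Rbbp8nl (0.657) and Sgce (0.108) did not pass the threshold, and those of the other 13 did.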

How the results depend on the processing

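With groups by title, which differ from the descriptions for 8 of 12 libraries, the members called numbered 0 for MG against MDM, 0 for LL-MG against LL-MDM and 0 for the interaction. The median log2 fold changes were then 0.17 for LL-MDM against MDM and 0.27 for LL-MG against MG. By the descriptions, both set MG and LL-MG libraries against MDM and LL-MDM libraries, so their sign cannot be read against that of the lipid differences. Both sides of LL-MG against LL-MDM by title hold only MG and LL-MG libraries, so signs there cannot be read against those by description either. In LL-MG against LL-MDM by title, signs differed from those by description for Iffo1 (-0.024), Ttc7 (-0.39), Sgce (-0.17), Prpsap2 (-0.19), Stk17b (0.18), Plscr2 (0.46), Fut8 (0.44), Cytip (0.76) and Rbbp8nl (0.28). In the interaction the sign differed for Mrps28 (0.37). Grouping followed the descriptions because the table names its columns by them.

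With thinned libraries 1129 members passed the filter, of which 256 were called for MG against MDM, 71 for LL-MG against LL-MDM and 27 for the interaction, and the LL-MDM median was -0.35. Of all 34590 regions tested there, 10832, 5466 and 1294 were called in that order. Without MG 2 and MG 3 together the counts were 1416, 907 and 145 and the LL-MG median was -0.23. Leaving out 1 library gave 1759 to 3131, 240 to 909 and 154 to 1347 members called in the 3 comparisons, and medians of -0.29 to -0.14 for LL-MDM and -0.40 to -0.28 for LL-MG. Calls over all tested regions then ran from 33474 to 49727, 10372 to 21996 and 3949 to 17832. With the titles' mouse number as a replicate block the counts were 2277, 414 and 287, but 0 for LL-MG against MG and 106 for LL-MDM against MDM, against 1046 and 1083 without it. Over all tested regions the last 2 comparisons had 0 and 3934 calls with the block, against 9505 and 22969 without it. Since titles and descriptions conflict, that number is not taken to pair the libraries. Scaling to total counts moved the median of all tested regions in LL-MG against MG by 0.12, and the members' median relative to it was -0.38 under both scalings. Counting all genes of the table put 68.4% of members inside a gene, and 15.7% lay within 1 kb of a start. No filter, RLE, loess offsets and DESeq2 kept the counts of the lineage comparisons and the interaction within 1.5 times. Of the values of single named regions under the alternatives, 748 kept their direction and call or stayed within their error, 22 moved further, 20 lost the call and 10 changed sign.

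Depth limits what a missing lipid-laden call says, since a member at the median level had 3 to 20 counts in a lipid-laden library. Calls, chosen members and tests all rest on the same libraries.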
